A study of Arabidopsis thaliana with 6 samples.

Results

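The enzymes that write and erase DNA methylation were examined in germinating Arabidopsis thaliana seeds, together with QQS, a gene known for its epialleles. The set held 10 of the 32389 genes with counts. It consisted of 9 enzymes picked by locus for what they do (MET1, CMT2, CMT3, DRM2, DDM1, ROS1, DME, DML2 and DML3) and of QQS, which was picked because its fall in scl30a-1 was among the largest of all genes. The values of QQS in this comparison are therefore a description, and no test is given for them. The whole set, enzymes included, was chosen with earlier results of these data known.

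Poly(A) RNA was sequenced from the wild type (WT, accession Col-0) and from scl30a-1, a line in the same Columbia background that is named for SCL30a, a gene for an SR (serine/arginine-rich) splicing factor. Each genotype had 3 libraries, called a, b and c here after the letters of the data columns. Seeds of both genotypes spent 3 days in the cold and were collected 18 h later, after growth at 21 degrees Celsius under continuous white light. The labels name the material a germinating seed, and the extraction text speaks of whole seedlings. The mutant is represented by 1 line, and the labels name no second allele and no rescued line.

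In plants, methyl groups are put on cytosines in CG, CHG and CHH contexts, where H stands for any base but G. MET1 copies CG methylation onto the new strand after replication, CMT3 and CMT2 read histone H3K9 methylation and methylate non-CG sites, and DRM2 is guided by small RNAs (RNA-directed DNA methylation). DDM1 is a chromatin remodeller that opens heterochromatin to the methyltransferases. ROS1, DME, DML2 and DML3 are DNA glycosylases that cut out methylated cytosine, so that base excision repair can put back an unmethylated base. QQS is an orphan gene that affects starch content, lies among transposon remnants and is known in Arabidopsis for natural epialleles, in which methylated repeats upstream of the gene go with a silent state.

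The sequence upstream of QQS is shown first, since its CG sites are where the known epialleles differ. QQS (AT3G30720) lies at chr3:12349047-12349933 on the plus strand (TAIR10.1 coordinates) and has 3 exons and a transcript of 684 nt. The 250 bases before its annotated start, at chr3:12348797-12349046 on the plus strand, are printed 5′ to 3′ with CG dinucleotides in capitals.
QQS upstream: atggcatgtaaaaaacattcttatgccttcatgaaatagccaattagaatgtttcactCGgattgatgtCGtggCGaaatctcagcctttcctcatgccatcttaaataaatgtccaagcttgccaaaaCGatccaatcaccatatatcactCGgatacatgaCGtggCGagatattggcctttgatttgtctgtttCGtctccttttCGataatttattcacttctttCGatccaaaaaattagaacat
This window held 10 CG dinucleotides and a GC content of 37.6%. Of the 27437 windows of the same length upstream of protein-coding genes, 87.5% held fewer CG dinucleotides, and the median window held 5 with a GC content of 31.2%. The window also held an imperfect direct repeat, whose copies of 35 bases matched at 28 positions (80%) and carried 3 CG dinucleotides each. The first copy lies at chr3:12348850-12348884 and the second at chr3:12348944-12348978, both on the plus strand.
QQS repeat copy 1: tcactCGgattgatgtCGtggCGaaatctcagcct
QQS repeat copy 2: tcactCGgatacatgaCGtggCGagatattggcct
DNA methylation itself was not measured in these samples, so the sequence shows where CG sites are and not whether they were methylated.

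The windows of MET1, CMT3 and ROS1 are shown because these enzymes had the clearest differences described next. They cover chr5:19931864-19932113 on the plus strand, chr1:26253688-26253937 on the minus strand and chr2:15314808-15315057 on the minus strand, each 250 bases before the start of the gene. Capitals mark a match to an E2F-type motif, the kind bound by the E2F factors of the cell cycle (TTTCCCGC, TTTGGCGC or TTTGGCGG on either strand).
MET1 upstream: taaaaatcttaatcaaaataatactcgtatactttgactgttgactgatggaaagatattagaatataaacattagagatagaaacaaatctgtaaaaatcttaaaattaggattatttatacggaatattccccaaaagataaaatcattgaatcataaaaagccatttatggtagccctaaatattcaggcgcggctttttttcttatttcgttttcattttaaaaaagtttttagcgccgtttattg
CMT3 upstream: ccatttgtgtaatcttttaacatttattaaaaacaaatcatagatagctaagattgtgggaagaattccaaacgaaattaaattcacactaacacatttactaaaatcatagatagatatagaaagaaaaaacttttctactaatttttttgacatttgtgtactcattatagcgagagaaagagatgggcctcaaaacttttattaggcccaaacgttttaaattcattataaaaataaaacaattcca
ROS1 upstream: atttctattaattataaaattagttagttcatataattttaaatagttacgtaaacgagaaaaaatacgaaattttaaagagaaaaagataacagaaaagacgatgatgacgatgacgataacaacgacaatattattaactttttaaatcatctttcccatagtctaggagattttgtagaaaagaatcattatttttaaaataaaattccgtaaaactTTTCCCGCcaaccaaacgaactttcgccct
The ROS1 window held 1 such match, TTTCCCGC, from 30 to 23 bases before the start, and 11 CG dinucleotides. The MET1 and CMT3 windows held none. Among all upstream windows, 1.48% held an E2F-type motif. The CMT2 window held TTTGGCGG and 2 copies of the G-box CACGTG, a motif found in 6.49% of windows. The DML2 window also held a G-box, from 250 to 245 bases before the start. The motifs do not overlap each other, and they were chosen after the values of the enzymes had been seen.

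The counts behind these results were deep and even. Total counts ranged from 70687361 to 84356746 in WT and from 77817191 to 85605647 in scl30a-1. Levels are given in CPM, counts divided by the TMM-scaled size of their library. On unscaled totals 3 counts were worth 0.035 to 0.0424 CPM, and this served as the floor. SCL30a, the check of the labels, fell from 96.1 ± 0.92 to 5.74 ± 0.156 CPM (SD, n = 3 each), and every library carried the level its label calls for. The comparison with WT was broad: 41.7% of the 18736 genes tested were called (adjusted p under 0.05 in the edgeR fit), 21.9% as higher and 19.7% as lower in scl30a-1, and the libraries of the genotypes did not overlap for 52.1%. The share of called genes that were higher was 52.6%, against 40.5% when libraries were not scaled for composition and 36% under upper-quartile scaling. The labels give no harvest, seed lot or sequencing batch, so a batch of that kind and the genotype cannot be told apart. The labels call the samples biological triplicates.

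Of the 9 enzymes, 8 had enough counts to be tested and 6 of these (75%) were called, against 41.7% of all genes. Over the other settings tried, an adjusted p under 0.01 among them, the number of enzymes called ranged from 4 to 6. MET1, CMT3 and CMT2 were lower in scl30a-1, and ROS1, DML2 and DRM2 were higher. DDM1 and DME did not pass the test. In absolute log2 fold change, the 8 tested enzymes had a median of 0.432, beside 0.172 for all genes.

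**Figure D1:**
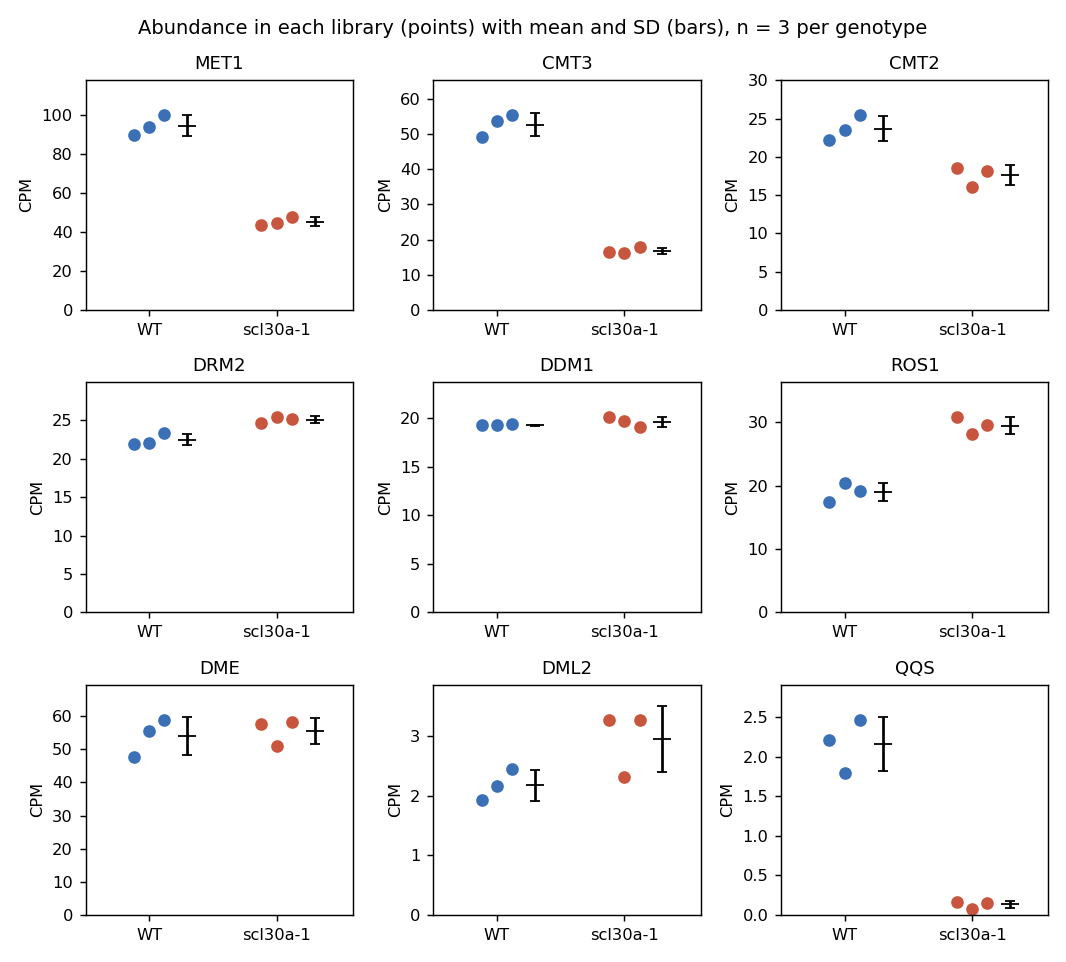
CPM (vertical axes, each starting at 0) of 8 enzymes and QQS in the 3 WT libraries and the 3 scl30a-1 libraries, 1 point per library in the order a, b, c, with the mean and SD beside the points. The genotypes are separate for MET1, CMT3, CMT2, DRM2, ROS1 and QQS and overlap for DDM1, DME and DML2.

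MET1 (AT5G49160, chr5:19932114-19938470, plus strand, 12 exons) is the maintenance methyltransferase of CG sites. It stood at 89.9, 94.1 and 100.2 CPM in WT libraries a, b and c, and at 43.6, 44.7 and 47.9 CPM in those of scl30a-1. Every mutant library lay below every WT library, with a wide gap between them. The mean fell from 94.7 ± 5.21 to 45.4 ± 2.25 CPM, to 47.9% of the WT level (log2 fold change -1.06, standard error 0.0568, adjusted p = 3.48e-07 by edgeR). Only 0.32% of the 36-base words of its transcript occur in another gene, so reads of its relatives can have added little to its count.

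CMT3 (AT1G69770, chr1:26248118-26253687, minus strand, 21 exons), the main CHG methyltransferase, had the largest fall among the enzymes. Its values were 49.0, 53.6 and 55.4 CPM in WT libraries a, b and c, and 16.5, 16.2 and 17.8 CPM in the mutant libraries. The mutant values lay close together and far under the lowest WT value. The mean went from 52.6 ± 3.32 to 16.8 ± 0.853 CPM, which left 32.0% of the WT level (log2 fold change -1.65, standard error 0.0612, adjusted p = 2.88e-08 by edgeR).

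CMT2 (AT4G19020, chr4:10414428-10421265, plus strand, 23 exons), which methylates CHH sites in heterochromatin, fell less. WT libraries a, b and c had 22.2, 23.5 and 25.5 CPM and scl30a-1 libraries had 18.5, 16.1 and 18.2 CPM. The genotypes did not overlap, but the gap between them was narrow next to that of CMT3. The log2 fold change was -0.43 (standard error 0.0698, adjusted p = 0.000857 by edgeR).

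DRM2 (AT5G14620, chr5:4715105-4718704, minus strand, 10 exons), the de novo methyltransferase, was slightly higher in scl30a-1. It had 21.9, 22.1 and 23.3 CPM in WT and 24.6, 25.4 and 25.2 CPM in the mutant libraries. The groups did not overlap, and the difference was small (log2 fold change 0.16, standard error 0.0475, adjusted p = 0.0223 by edgeR). The call was lost in 5 of 14 other settings: with no scaling for composition, under upper-quartile scaling, and without WT library a, WT library b or scl30a-1 library c (log2 fold changes from 0.09 to 0.15 in these).

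DDM1 (AT5G66750, chr5:26648897-26653191, plus strand, 16 exons) had nearly the same value in all 6 libraries. They read 19.3, 19.3 and 19.4 CPM in WT and 20.1, 19.7 and 19.1 CPM in scl30a-1, so the groups overlapped. The log2 difference was 0.02 with a 95% interval from -0.08 to 0.13 (edgeR adjusted p = 0.72), and its sign changed with the scaling.

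ROS1 (AT2G36490, chr2:15307907-15314807, minus strand, 21 exons), the main glycosylase of vegetative tissue, rose. It had 17.5, 20.4 and 19.2 CPM in WT libraries and 30.8, 28.1 and 29.6 CPM in scl30a-1 libraries. All mutant libraries were above all WT libraries. The mean went from 19.0 ± 1.44 to 29.5 ± 1.36 CPM, a 1.55-fold level (log2 fold change 0.63, standard error 0.0639, adjusted p = 3.75e-05 by edgeR). As background, ROS1 transcript is known in Arabidopsis to be low in mutants that lack MET1, and its expression goes with methylation of its own promoter.

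DME (AT5G04560, chr5:1309099-1318520, plus strand, 18 exons), the glycosylase best known for imprinting in the endosperm, did not pass the test. Its values were 47.6, 55.6 and 58.9 CPM in WT and 57.5, 51.0 and 58.1 CPM in scl30a-1, and they overlapped. The log2 difference was 0.04 with a 95% interval from -0.14 to 0.22 (edgeR adjusted p = 0.73), and its sign changed with the scaling and with the library left out.

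DML2 (AT3G10010, chr3:3081735-3088550, minus strand, 21 exons), a relative of ROS1, was low in both genotypes. It had 1.93, 2.17 and 2.45 CPM in WT and 3.28, 2.31 and 3.27 CPM in the mutant, where library b lay within the WT range. The log2 fold change was 0.43 (standard error 0.15, adjusted p = 0.0398 by edgeR), and this call was lost in 7 of 14 other settings: both of those scalings, limma-voom, and the fits without WT library a, WT library b, scl30a-1 library a or scl30a-1 library c (0.35 to 0.43 in these). DML3 (AT4G34060, chr4:16313366-16319426, plus strand, 18 exons), its sister gene, had 0 counts in all 6 libraries, which allows up to 0.0424 CPM in a library.

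**Figure D2:**
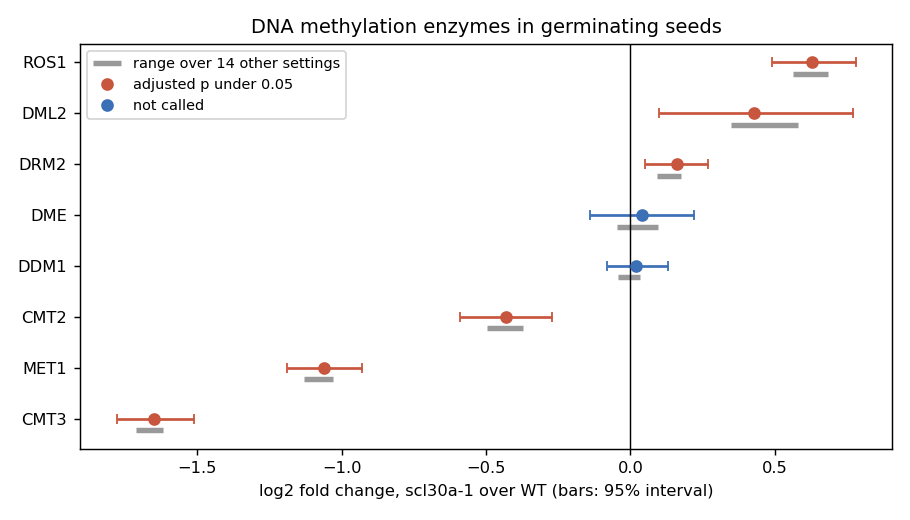
Log2 fold change of each tested enzyme, scl30a-1 over WT (horizontal axis), with the 95% interval of the edgeR fit as a thin bar and the range over 14 other settings as a grey bar under it. CMT3, MET1 and CMT2 lie left of 0 and ROS1, DML2 and DRM2 right of it in every setting, while DDM1 and DME straddle 0. The calls of DML2 and DRM2 were lost in some of these settings.

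QQS had 158, 138 and 215 counts in WT libraries a, b and c, and 14, 6 and 12 counts in those of scl30a-1. This is 2.21, 1.80 and 2.47 CPM against 0.164, 0.078 and 0.155 CPM. Every mutant library was far below every WT library, and every mutant library was above the floor of 3 counts, so the gene was low but detected. The log2 fold change was -4.01, or 6.22% of the WT mean. Between settings it ran from -4.20 to -3.75. By size it was the second fall among all genes tested, with SCL30a itself (-4.07) just above it and AT5G49152, a non-coding RNA locus, just below it. AT5G49152 had only 10, 13 and 13 counts in WT and 2, 0 and 0 in scl30a-1. No other gene shares a 36-base word with QQS, and no annotated gene overlaps it.

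The loci around QQS were nearly silent in both genotypes. Of the 10 measured loci on each side, 18 are annotated as pseudogenes, transcribed pseudogenes included. Of all these loci, 17 had 0 counts in all 6 libraries, and the highest count of any of them in any library was 6. The nearest on each side, AT3G30722 (340 bases before) and AT3G30724 (445 bases after), had no count in any library. None of the 20 could be tested, so whether they differ between genotypes was not detectable at this depth.

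Other genes had a pattern like that of QQS across the 6 libraries. By the root mean square distance of gene-centred log2 CPM, the nearest was SCL30a (0.327), followed by ATK5 (0.356), a kinesin gene, and GEX2 (0.406), a gamete-expressed gene. ATK5 had 224, 264 and 323 counts in WT and 23, 18 and 14 in scl30a-1, although 11.26% of its 36-base words occur in other genes. These distances rest on 6 libraries in 2 groups, so likeness here is mostly a fall of like size.

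GEX2 is also the nearest measured locus before MET1 by annotated start, and it ends 2857 bases short of that gene. It had 133, 168 and 175 counts in WT libraries and 13, 11 and 20 counts in scl30a-1 libraries, and fell to 9.14% of WT (log2 fold change -3.45, standard error 0.199, adjusted p = 5.87e-07 by edgeR). GEX2 overlaps AT5G49152 and shares 98.95% of its words with it, so reads of these genes cannot be told apart. On the other side, AT5G49170 starts 69 bases after MET1 and fell from 3.35 ± 0.22 to 2.29 ± 0.0861 CPM (log2 fold change -0.55, standard error 0.0928, adjusted p = 0.00109 by edgeR). Of the 20 loci around MET1, 12 were tested and 3 were called (25%, against 41.7% of all genes): GEX2, AT5G49152 and AT5G49170, all lower. The first pair are not separate signals, given the sequence they share. Whether the fall of MET1 and those of its neighbours share a source was not tested.

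Compared per length, the order of the members changed between genotypes. CPM per kb of the longest annotated transcript was 18.7 ± 1.03 for MET1 and 17.2 ± 1.08 for CMT3 in WT, and the ranges of these overlapped. DRM2 (9.63), DME (7.76), DDM1 (6.97), CMT2 (5.57), ROS1 (3.94), QQS (3.16) and DML2 (0.497) followed, and of these DME and DDM1 overlapped, as did no other neighbours in that order. In scl30a-1, DRM2 was first at 10.8 ± 0.189, ahead of MET1 (8.97), DME (7.97), DDM1 (7.08), ROS1 (6.12), CMT3 (5.49), CMT2 (4.14), DML2 (0.673) and QQS (0.193). CMT3 thus went from about the level of MET1 to a level below ROS1.

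Ratios within a library do not depend on how libraries are scaled. The CMT3 to DRM2 ratio, in counts per nt, was 1.70, 1.84 and 1.81 in WT libraries and 0.509, 0.485 and 0.537 in scl30a-1 libraries. The MET1 to ROS1 ratio was 4.89, 4.40 and 4.98 in WT and 1.35, 1.52 and 1.54 in the mutant. Both ratios were separate between genotypes, as were the other 3 examined. MET1 to DDM1 went from 2.68 ± 0.141 to 1.27 ± 0.0942, CMT3 to CMT2 from 3.08 ± 0.0804 to 1.33 ± 0.0827, and ROS1 to DME rose from 0.51 ± 0.0351 to 0.769 ± 0.0303. Each of the 5 gave p = 0.1 in a two-sided exact permutation test, before and after Benjamini-Hochberg adjustment, which is the smallest p that 3 against 3 libraries allow. In each of the 5 ratios the difference between genotypes was larger than the spread between libraries, although this permutation test cannot go below 0.1 at this size.

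**Figure D3:**
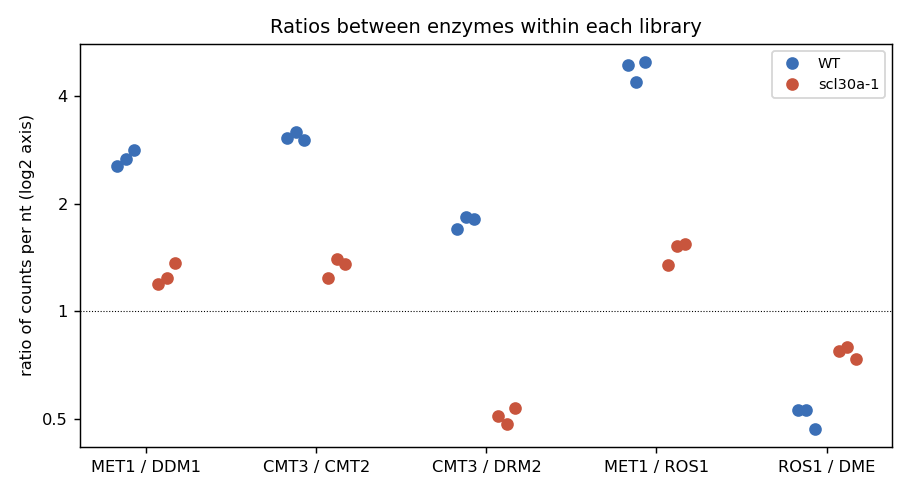
Ratio of counts per nt between pairs of enzymes within each library (vertical axis, log2 scale), 1 point per library. MET1 over DDM1, CMT3 over CMT2, CMT3 over DRM2 and MET1 over ROS1 are lower in all scl30a-1 libraries, and ROS1 over DME is higher in all of them.

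The partners of MET1 and CMT3 were examined next. Every fold change named in this and the following gene groups is from the same fit, and each gene said to rise or fall passed the adjusted threshold with libraries that did not overlap. The annotated spans of DRM3, SUVH4, IDM1, IDM3, ARP, FWA, NF-YC4, TSO2, MCM7, CDC6, PCNA2, EXPA2, MAN5, MAN7 and OLEO1 overlap another gene. Strand use in counting is not known, so part of the reads of these genes may belong to the overlapping gene. Of 11 genes for CG maintenance and H3K9 methylation, 10 were tested and 6 were called (60%, against 41.7% of all genes), 5 lower and 1 higher (median log2 fold change -0.144, against 0.0027 for all genes). VIM1, which binds hemimethylated CG sites and recruits MET1, fell from 23.3 ± 1.16 to 13.5 ± 0.634 CPM (log2 fold change -0.78, standard error 0.0586, adjusted p = 4.32e-06 by edgeR). VIM3, its relative, fell with a log2 fold change of -0.74, but 26.53% of its words occur in other VIM genes. SUVH4, which writes the H3K9 mark that CMT3 reads, fell from 22.6 ± 0.382 to 16.3 ± 0.618 CPM (-0.47, adjusted p = 5.65e-05 by edgeR). IBM1, a demethylase that takes this mark off gene bodies, rose from 68.2 ± 4.36 to 82.7 ± 5.89 CPM (0.28, adjusted p = 0.00695 by edgeR).

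In the RNA-directed pathway that guides DRM2, the share of genes called was close to that of all genes. All 27 of its genes were tested and 10 were called (37.0%, against 41.7% of all genes), 7 higher and 3 lower, with a median log2 fold change of 0.065. CLSY2, a remodeller that recruits RNA polymerase IV, rose from 3.63 ± 0.0394 to 6.65 ± 0.175 CPM (log2 fold change 0.88, adjusted p = 7.4e-06 by edgeR), while its relative CLSY1 fell from 84.4 ± 4.17 to 66.9 ± 1.69 CPM (-0.34). AGO9, an Argonaute protein that binds small RNAs, rose (0.66), as did RDM4 (0.35). AGO4, the main Argonaute of the pathway, did not pass the test at 151.8 ± 7.96 and 159.0 ± 6.5 CPM; it was named after its values were seen. Upper-quartile scaling gave 5 higher and 4 lower, while all genes called went from 4106 higher and 3700 lower to 2961 higher and 5258 lower.

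Of the 6 other methyltransferase genes, DRM3 had by far the highest level, and DRM1 stood at 0.303 ± 0.082 CPM in WT and 0.206 ± 0.101 CPM in scl30a-1. Only DRM1 and DRM3 were tested and edgeR called neither, with 0 of them at an unadjusted p under 0.05 and 0 called by DESeq2 or limma-voom. DRM3, a catalytically inactive partner of DRM2, stood at 30.5 ± 1.93 and 29.3 ± 1.07 CPM. The methyltransferase genes AT4G14140, AT4G08990 and MET3 had at most 2 counts in any library, and CMT1 at most 9.

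Among 12 genes that work with the glycosylases, 5 were called, 4 higher and 1 lower (41.7%, the share of all genes). ARP, an endonuclease that trims the gap left by ROS1, rose from 16.6 ± 1.2 to 25.2 ± 0.868 CPM (log2 fold change 0.60, adjusted p = 4.08e-05 by edgeR), and 10.43% of its words occur in other genes. ZDP, the phosphatase of the same step, rose from 21.1 ± 1.22 to 27.0 ± 1.04 CPM (0.36, adjusted p = 0.000738 by edgeR). IDM3, part of the complex that brings ROS1 to its targets, rose (0.57), and IDM1, the acetyltransferase of that complex, fell (-0.22).

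Genes known to be kept silent or imprinted by DNA methylation were mostly not expressed. Of 12, 5 were tested and 3 of these were called (60%, against 41.7% of all genes), and 4 had 0 counts in all libraries. AT4G18650 rose from 9.41 ± 0.939 to 30.6 ± 0.976 CPM (log2 fold change 1.70, standard error 0.0706, adjusted p = 5.9e-08 by edgeR). FWA, an imprinted homeobox gene, fell from 3.03 ± 0.0928 to 1.75 ± 0.154 CPM (-0.79, adjusted p = 0.000174 by edgeR). ALN, the allantoinase gene, fell from 28.2 ± 0.85 to 19.6 ± 1.09 CPM (-0.52, adjusted p = 5.03e-05 by edgeR).

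Starch genes were examined because QQS affects starch. Of 21, 8 were called, 5 higher and 3 lower (38.1%, against 41.7% of all genes). DPE2, which uses maltose from starch, rose from 279.3 ± 7.51 to 368.5 ± 5.1 CPM (log2 fold change 0.40, adjusted p = 0.000107 by edgeR), and GBSS1, the amylose synthase, rose too (0.42). ISA3 rose (0.26), with its call lost without composition scaling, and SS1, a starch synthase, fell (-0.29). NF-YC4, the protein partner of QQS, did not pass the test at 18.1 ± 1.35 and 16.0 ± 1.38 CPM (edgeR adjusted p = 0.081). Of the 36-base words of NF-YC4, 26.06% occur in other genes. The split depended on scaling, with 2 higher and 5 lower when composition was not scaled and 3 higher and 6 lower under upper-quartile scaling. All genes called moved the same way, to 3119 higher and 4589 lower and to 2961 higher and 5258 lower in these settings. The count of starch genes called dropped to 4 without WT library b or scl30a-1 library a.

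**Figure D4:**
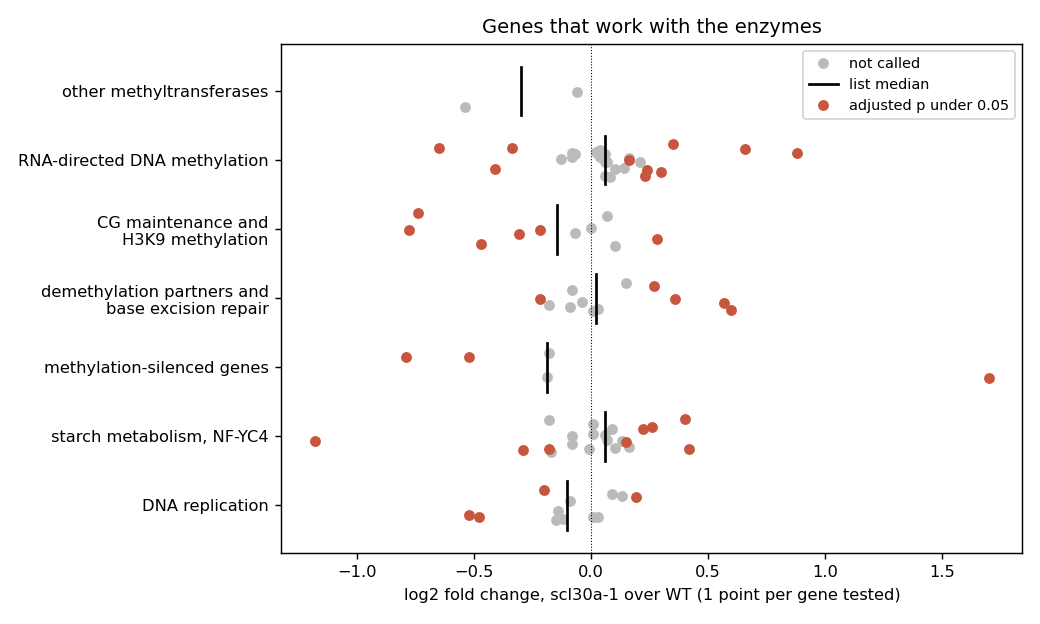
Log2 fold change, scl30a-1 over WT (horizontal axis), of each tested gene in 7 lists, 1 point per gene, in red where the edgeR adjusted p was under 0.05, with a bar at the list median. The spread within lists is wider than the distance of any list median from 0, which reaches -0.302 in a list of 2 genes.

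Replication and tissue markers are given beside these results, since MET1 and CMT3 are known to be expressed most in dividing cells. Of 12 DNA replication genes 4 were called (33.3%, against 41.7% of all genes), 1 higher and 3 lower. TSO2, the small subunit of ribonucleotide reductase, fell from 293.2 ± 4.54 to 210.7 ± 12.8 CPM (log2 fold change -0.48, adjusted p = 8.82e-05 by edgeR), and CDC6 (-0.52) and MCM7 (-0.20) fell too, while PCNA2 rose (0.19). The call of MCM7 was lost without WT library b. That of PCNA2 was lost with upper-quartile scaling, without WT library a or without WT library c. Of the 36-base words of PCNA2, 21.78% occur in other genes. Upper-quartile scaling gave 0 higher and 6 lower. In that setting the split of all genes called also moved, from 4106 higher and 3700 lower to 2961 higher and 5258 lower. This shift is therefore not particular to replication genes.

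All 5 seed markers were higher in scl30a-1, with log2 fold changes from 2.09 to 3.02, and their summed level was 1074.0 to 1363.5 CPM in WT and 8409.3 to 9736.2 CPM in the mutant. They are CRA1 and CRC, which encode storage globulins, OLEO1, an oil body protein, and EM1 and EM6, late embryogenesis proteins. Of 4 endosperm markers, EPR1 (1.66) and MAN7 (0.51) rose, and EXPA2 (0.12) and MAN5 (0.0) did not pass the test. Their summed level was 1613.7 to 1708.7 CPM in WT and 2288.9 to 2365.4 CPM in scl30a-1. Within that sum, EPR1 alone went from 228.5 ± 40.9 to 724.2 ± 78.3 CPM. Of 6 embryo markers, PDF1 (-0.53) and ATML1 (-0.20) fell and the other 4 did not pass the test, with log2 fold changes of -0.11 for FDH, 0.05 for SCR, 0.14 for PLT1 and 0.18 for PLT2. The median over the 6 was -0.031. Their summed level, to which FDH, PDF1 and ATML1 gave the most, was 966.3 to 1001.8 CPM in WT and 807.5 to 872.2 CPM in scl30a-1. The 3 seed coat markers BAN, TT2 and TT12 were at 0 in all libraries. In these bulk samples of whole seeds, fewer cells of a type and less RNA per cell cannot be told apart, and the part of these shifts in the results on the enzymes was not tested.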

How the data were processed

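Raw counts of reads per gene, made by the authors from poly(A) RNA libraries, were read from the deposited table, which has 1 count column per library, per the file headers. The genome build was TAIR10, per the submitters' processing notes. The aligner, the counting tool and the use of strand are not given in the sources used here. Another 6 columns of length-normalized values were not used, because they could not be mapped to the samples beside the count columns, and the limma test planned on them was not run. Levels per length were therefore computed as CPM per kb of the longest RefSeq transcript.

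Of 33602 genes, 32389 had counts and 18736 passed filterByExpr (minimum count 10). The test was edgeR's quasi-likelihood test (version 4.0.16, in R 4.3.3) on TMM-scaled counts, with genotype as the only term and p-values adjusted over the 18736 genes by Benjamini-Hochberg (threshold 0.05). The test was checked on simulated counts. Column names gave a genotype and a letter, so columns were assigned to genotypes only. Library pairs of a genotype differed by more than sampling noise (chi-square per degree of freedom 5.475 to 23.59), and p-values measure only the spread between these libraries. Intervals use 95% and cover the fit only, and floors cover counting error only.

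Sequences and coordinates came from RefSeq TAIR10.1. The members and gene lists were chosen with earlier results of these data known. The text names all members, SCL30a and at most 4 called members of each gene list by smallest p with libraries that do not overlap. Also named are the nearest measured locus on each side of QQS and MET1, the 3 genes most like QQS and its neighbours in rank. Outside this rule, the text names all tissue markers, some list members not called or not tested, and a few pseudogenes. Other settings tried were DESeq2 1.42.0 and its size factors, limma-voom (limma 3.58.1), other scalings and filters, each library left out, a replicate block and an adjusted p under 0.01.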

Additional observations from a re-analysis of the deposited data

How the results depend on the processing

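MET1, CMT3, CMT2 and ROS1 kept their direction and their call in all 14 other settings, from -1.13 to -1.03, -1.71 to -1.62, -0.50 to -0.37 and 0.56 to 0.68 on the log2 scale. The 3 enzymes called lower remained 3 throughout. The enzymes called higher dropped from 3 to 1 when composition was not scaled and to 1 under upper-quartile scaling. All genes called higher dropped too, from 4106 to 3119 and 2961 in these settings. When single libraries were left out, the enzymes called higher ranged from 1 to 3. DDM1 changed sign to -0.024 without composition scaling and to -0.044 under upper-quartile scaling. DME changed to -0.009 and -0.030 under the same settings, and ranged from -0.045 to 0.096 when single libraries were left out. An adjusted p under 0.01 left 5008 genes called. When single libraries were left out, all genes called ranged from 5825 to 8075, the other methyltransferases called from 0 to 1 and the starch genes called from 4 to 8. The cause of these shifts was not tested. With a replicate block by column letter, 8940 genes and 6 enzymes were called and no enzyme changed its call. Libraries with the same letter deviated from their genotype means with correlations of -0.077, 0.238 and 0.247. Those with different letters gave correlations from -0.402 to 0.233. With 3 libraries per genotype, these values cannot settle whether the letters pair the libraries. A limma test on the deposited length-normalized values, with either pseudocount, was not run, since those columns were not used. Depth limits QQS, with 6 to 14 counts in scl30a-1, DML2, and the loci around QQS.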

Other observations

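Pseudogenes, a class that includes many transposon remnants, were mostly silent in both genotypes. Loci annotated as transcribed pseudogenes were left out of every count and sum given here, so this covers the remaining class only. Of its 3728 loci in the table, 85.6% had 0 counts in all 6 libraries, and 135 were tested. Of these, 50 were called by edgeR (37%, against 41.7% of all genes), 15 higher and 35 lower in scl30a-1, with a median log2 fold change of -0.075. Their summed level was 1361.8 to 1457.1 CPM in WT and 1370.1 to 1430.0 CPM in scl30a-1, which are overlapping ranges. Among the 32 called pseudogenes with a mean of at least 50 counts and libraries that did not overlap, AT5G35935 had the largest difference, with 99, 83 and 95 counts in WT libraries and 2682, 2089 and 2316 counts in scl30a-1 libraries. AT5G33395 went the other way, with 155, 187 and 273 counts in WT and 26, 24 and 12 counts in scl30a-1. SADHU5-1, of a family of retroelements, fell from 3.46 ± 0.424 to 1.39 ± 0.312 CPM. These loci were named after their values were seen.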
